A study of Homo sapiens with 6 samples.

Results

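The genes described here encode the human kinetochore, the spindle assembly checkpoint and the main mitotic kinases. They are 43 symbols given by name, of 17789 symbols listed in at least 1 of 6 RNA sequencing libraries. All 43 were listed in every library, and they were chosen with earlier results of these data known. They were read as 12 inner kinetochore genes, 15 outer kinetochore genes, 10 genes of the checkpoint and of cohesion protection, and 6 genes of the mitotic kinases and the chromosomal passenger complex. The FOXD3 knockdown group held 3 libraries of cells transfected, with a lipid reagent, with a SMART pool of small interfering RNAs against FOXD3, a forkhead transcription factor. The control group held 3 libraries of cells whose genotype is given as wild type, and the labels do not say what was transfected into them. Both groups carry the label A549, a line derived from a human lung carcinoma, and were grown in MEM with serum. The knockdown was examined 72 h after transfection, and the labels do not give the time of RNA extraction. Whether the replicates were separate cultures is not stated. The p-values therefore cover the spread between these 6 libraries alone, which may be technical.

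The kinetochore is the protein structure that joins a chromosome's centromere to spindle microtubules. Its inner layer rests on nucleosomes that carry the histone variant CENP-A, and its outer layer holds the NDC80, MIS12, KNL1 and SKA assemblies. Kinetochores without a proper attachment recruit the BUB and MAD proteins, which hold back CDC20, the activator of the anaphase-promoting complex, until every chromosome is attached. Aurora B with its passenger partners, Aurora A and PLK1 are the kinases that correct attachments and build the spindle. Most of these transcripts are known to accumulate in G2 and mitosis of dividing cells, so in bulk RNA a larger share of cells in those phases and more transcript per cell cannot be told apart.

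FOXD3 itself was listed at 0.0749 FPKM in knockdown replicate 2 and was not listed in knockdown replicates 1 and 3, against 0.152, 0.291 and 0.134 FPKM in control replicates 1, 2 and 3. FPKM count fragments relative to how long a transcript is and how many fragments were mapped. The difference in means had p = 0.1 (two-sided, exact permutation), and this test gives no smaller p with 3 against 3 libraries. FOXD3 fell under the filter of the test across genes. With no filter limma gave it an adjusted p of 0.0273, which rests on values near the floor, the unlisted ones set to 0. The epithelial markers KRT8, KRT18, KRT19, EPCAM and CDH1 each passed 5 FPKM in all 6 libraries. The lung markers NKX2-1 and NAPSA did not, at 1.56 to 1.65 and 0.101 to 0.561 FPKM in knockdown libraries and 1.16 to 1.39 and 0.306 to 0.775 FPKM in control libraries, and SFTPC was listed at 0.149 FPKM in knockdown replicate 2 and in no other library. CDKN2A and MTAP lie in a locus that A549 is known to lack. CDKN2A nevertheless stood at 126 to 129 FPKM in knockdown and 154 to 155 FPKM in control libraries, and MTAP at 12.1 to 12.3 FPKM in knockdown and 9.20 to 11.7 FPKM in control libraries, so the cells are called here only by their label. Of 6 leukocyte, 6 fibroblast and 5 endothelial markers 1 reached 5 FPKM, namely LCP1, at 24.1 to 27.6 FPKM in knockdown and 87.4 to 101 FPKM in control libraries. The 6 leukocyte markers summed to 25.6 to 29.4 FPKM in knockdown and 91.5 to 104 FPKM in control libraries, with PTPRC at 0.146 to 0.309 FPKM over both groups and CD3E listed in 1 library. Their part in the results was not tested. Fibroblast markers summed to 2.96 to 3.63 FPKM in knockdown and 3.66 to 4.61 FPKM in control libraries, and endothelial markers to 3.997 to 4.25 FPKM in knockdown and 6.57 to 7.80 FPKM in control libraries, with DCN in no library and KDR in 1.

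Most of the kinetochore and checkpoint genes were higher in the knockdown libraries. Of the 43 genes, 35 were higher and 1 was lower in limma's test on log2(FPKM + 1) with Benjamini-Hochberg adjusted p under 0.05 over all 13340 tested genes. Of all tested genes 25.6% were called higher and 37.9% lower. The median log2 change, knockdown minus control, was 0.66 for the 43 genes and -0.087 for all tested genes. All 3 knockdown libraries lay above all 3 control libraries in 37 of the 43 genes, against 28.3% of all tested genes, and below them in 1, CENPH, against 40.8%. Called genes whose mean FPKM was at least 2-fold higher numbered 11 of 43, against 2.90% of all tested genes. The 43 genes together made up 0.220%, 0.210% and 0.210% of the FPKM total in knockdown replicates 1, 2 and 3, and 0.123%, 0.122% and 0.115% in control replicates 1, 2 and 3. The balance of all calls depended on scaling, with 40.4% of calls higher as deposited (3417 higher, 5050 lower), 53.5% after median scaling (4541 higher, 3946 lower) and 52.4% after quantile normalization (4304 higher, 3909 lower). Quantile normalization moved the median change of all genes to 0.025. Of the 43 genes, 38 were higher and 0 lower after median scaling, and 39 were higher and 1 lower after quantile normalization.

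**Figure D1:**
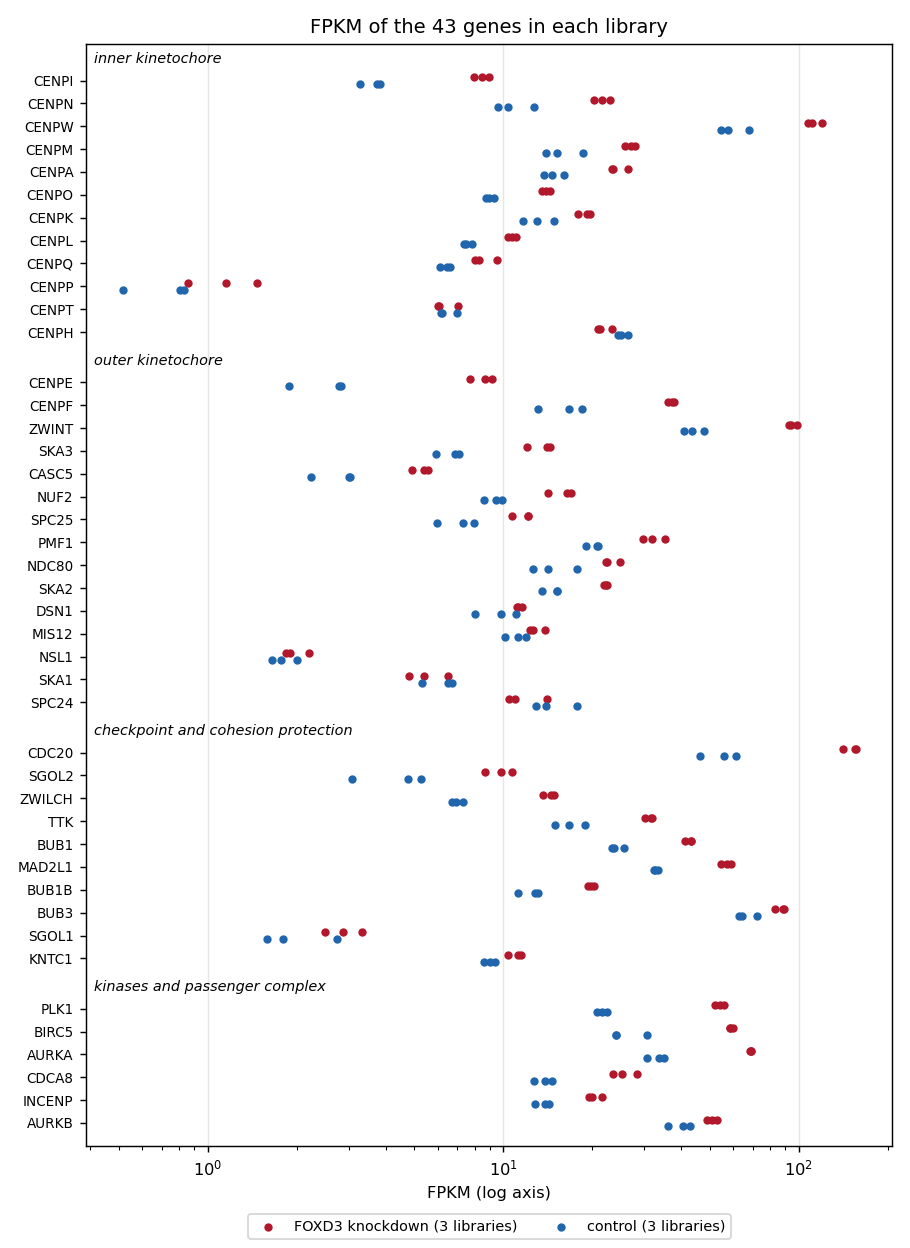
FPKM on a log axis of the 43 genes, one row per gene within 4 subgroups, with 3 points for FOXD3 knockdown and 3 points for control libraries. Knockdown points lie to the right of all control points in 37 rows, and to their left in the row of CENPH.

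The control libraries were not uniform along transcript length. Across 12826 tested genes with a GENCODE length, the deviation of control replicate 1 from the other controls ran against transcript length with Spearman's rho of -0.22, and that of control replicates 2 and 3 ran with it at 0.15 and 0.12. Knockdown replicates 1, 2 and 3 gave -0.0018, -0.064 and 0.073. Within a group the deviations cancel out for each gene, so the values of its libraries are not separate observations. Among the 43 genes the value for control replicate 1 was -0.37. Of the 10 genes with a transcript of at least 4000 bases, 5 were lowest among the controls in that library, CENPE, CENPF and CASC5 among them. Of the 33 shorter ones, 7 were lowest and 22 highest there. The change between groups did not run with length across all genes, with rho of -0.00018, and gave 0.16 across the 43. These correlations are descriptions across genes, which share libraries and are not independent. Without control replicate 1 the counts were 35 higher and 1 lower, and with the length and GC trend of each library removed they were 33 higher and 1 lower.

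Promoter sequence was examined because the genes moved together and because many G2 and mitosis genes are known to carry a cell cycle genes homology region, or CHR, an element bound by MuvB complexes, often with CCAAT boxes upstream that bind NF-Y. RefSeq windows (GRCh38.p14) from 250 bases before to 50 bases after the annotated start were found for 34 of the 43 genes. No window was used for CENPH, CENPL, CENPM, CASC5, BUB3, TTK, KNTC1, AURKA and BIRC5. A CHR hexamer, TTTGAA or TTCGAA on either strand, was present in 19 of the 34 genes (55.9%), in 15.4% of the 10361 tested genes with a window and in 16.4% of all 35116 windows. It began within 50 bases of the annotated start in 18 of those 19 genes (94.7%), counting any window of a gene. Of all windows that hold one, counted singly and not only for tested genes, the share was 30.7%. CCAAT on either strand was present in 23 of 34 genes (67.6%), in 43.04% of tested genes with a window and in 34.6% of all windows. E2F letters (TTTGGCGC, TTTCGCGC, TTCGCGC or TTGGCGC, the shorter contained in the longer, either strand) were present in 4 of 34 genes (11.8%), in 10.4% of tested genes with a window and in 5.06% of all windows, so their share was near that of tested genes. The 19 genes with a CHR hexamer had a median log2 change of 0.78, and 17 of them were called higher. The 15 without one had a median of 0.37, and 10 were called higher. Of all 13340 tested genes 25.6% were called higher, a share that was not split by the hexamer. Among the tested genes with a window the medians were -0.029 with and -0.086 without the hexamer. A match is a description of letters and no test was made.

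The windows below run from 120 bases before the annotated start to 30 bases from it on GRCh38.p14, 5′ to 3′ on the gene's strand, with CHR hexamers and CCAAT boxes in capitals. The first 6 show the hexamer upstream of or across the start in genes that were higher, taken from each subgroup. CENPE shows a gene with a large rise and neither motif, and SPC24 and CENPT show genes that were not called. Of the genes not shown, SKA1 and SGOL1 hold a hexamer and were not called, while CENPI, SGOL2 and ZWILCH hold none and were called higher.
CDC20 (chr1:43358861-43359010, plus strand): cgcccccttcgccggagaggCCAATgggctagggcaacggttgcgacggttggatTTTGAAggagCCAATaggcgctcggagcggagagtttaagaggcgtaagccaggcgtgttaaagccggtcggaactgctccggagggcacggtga
PLK1 (chr16:23678769-23678918, plus strand): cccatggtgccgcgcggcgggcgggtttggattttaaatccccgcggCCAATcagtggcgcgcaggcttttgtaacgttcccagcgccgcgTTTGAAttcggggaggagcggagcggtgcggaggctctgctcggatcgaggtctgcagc
CENPA (chr2:26785936-26786085, plus strand): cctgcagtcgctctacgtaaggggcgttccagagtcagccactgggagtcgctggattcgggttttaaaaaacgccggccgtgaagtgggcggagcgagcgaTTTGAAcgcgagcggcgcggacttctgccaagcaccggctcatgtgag
NDC80 (chr18:2571437-2571586, plus strand): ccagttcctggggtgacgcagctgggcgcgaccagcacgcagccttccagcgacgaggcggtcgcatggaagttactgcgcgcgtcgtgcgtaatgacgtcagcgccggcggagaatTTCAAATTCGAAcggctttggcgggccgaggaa
BUB1B (chr15:40160949-40161098, plus strand): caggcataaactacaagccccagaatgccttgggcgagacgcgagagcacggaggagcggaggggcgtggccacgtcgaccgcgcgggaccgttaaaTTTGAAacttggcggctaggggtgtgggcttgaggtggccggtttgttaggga
CDCA8 (chr1:37692396-37692545, plus strand): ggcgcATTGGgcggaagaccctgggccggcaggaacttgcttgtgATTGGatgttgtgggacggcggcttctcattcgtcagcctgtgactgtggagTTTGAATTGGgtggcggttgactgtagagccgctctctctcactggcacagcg
CENPE (chr4:103198314-103198463, minus strand): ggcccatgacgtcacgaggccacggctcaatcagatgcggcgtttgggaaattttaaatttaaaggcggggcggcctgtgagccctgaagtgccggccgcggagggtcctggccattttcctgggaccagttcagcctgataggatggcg
SPC24 (chr19:11155753-11155902, minus strand): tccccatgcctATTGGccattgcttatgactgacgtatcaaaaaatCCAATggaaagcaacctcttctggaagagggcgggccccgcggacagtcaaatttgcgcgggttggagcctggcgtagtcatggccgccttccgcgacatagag
CENPT (chr16:67847664-67847813, minus strand): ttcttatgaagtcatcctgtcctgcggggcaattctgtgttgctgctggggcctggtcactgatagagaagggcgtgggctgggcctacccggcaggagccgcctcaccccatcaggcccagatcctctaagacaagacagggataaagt
In CDC20 the hexamer stands between CCAAT boxes. In CDCA8 it overlaps a reverse CCAAT box by 1 base, and in NDC80 a pair of hexamers lies end to end across the start. In the letters shown, SPC24 has a pair of CCAAT boxes and no hexamer, and CENPT has neither motif.

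**Figure D2:**
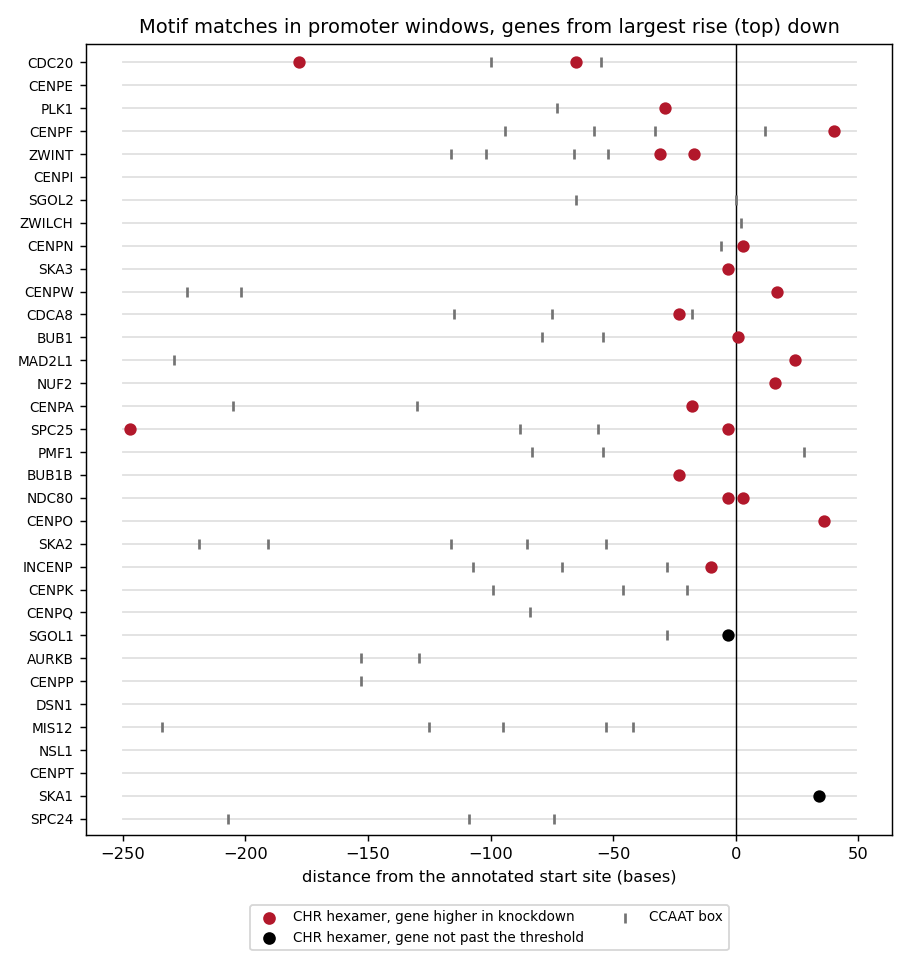
Position of CHR hexamers (circles) and CCAAT boxes (ticks) in bases from the annotated start, one row per gene for the 34 genes with a window, ordered by log2 change from the largest at the top. Genes with several annotated starts show the matches of each window. Most circles lie within 50 bases of the start and in the upper rows, while both circles of CDC20 and 1 of SPC25 lie further upstream.

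Inner kinetochore genes were mostly higher. Of 12 genes, 9 were called higher and 1 lower, against 25.6% and 37.9% of all tested genes. Their median log2 change was 0.54. CENPA, the histone H3 variant that marks the centromere (hg19, chromosome 2, 27008882 to 27017455), was at 26.4, 23.4 and 23.6 FPKM in knockdown replicates 1, 2 and 3, against 16.1, 14.7 and 13.7 FPKM in control replicates 1, 2 and 3. The groups did not overlap, and the log2 change was 0.69 (SE 0.076, limma adjusted p = 0.000101). CENPW, the histone-fold partner of CENPT and the most abundant inner kinetochore transcript per length, averaged 112.6 ± 6.39 FPKM in knockdown and 60.0 ± 6.79 FPKM in control libraries (SD, n = 3 each), a log2 change of 0.90 (SE 0.081, limma adjusted p = 3.36e-05). CENPT itself, which links the centromere to the NDC80 complex, did not follow its partner. It was at 7.01, 6.07 and 6.04 FPKM in knockdown against 7.002, 6.20 and 6.16 FPKM in control replicates, with overlapping groups, a log2 change of -0.016 and a 95% interval of -0.21 to 0.18. The sign of the CENPT value turned with scaling, to 0.099 after median scaling and 0.15 after quantile normalization.

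CENPH, CENPI, CENPK and CENPM encode the subunits of 1 complex within the constitutive centromere network, and their transcripts did not move alike. CENPI was at 8.97, 8.48 and 7.95 FPKM in knockdown, against 3.28, 3.83 and 3.73 FPKM in control replicates, the largest rise of the inner layer at a log2 change of 1.04 (SE 0.082, limma adjusted p = 1.88e-05). CENPM rose by 0.73 and CENPK by 0.49 on the log2 scale. CENPH (hg19, chromosome 5, 68485375 to 68506184) was at 20.9, 23.3 and 21.2 FPKM in knockdown, against 26.4, 24.4 and 25.1 FPKM in control replicates. It was the only one of the 43 genes called lower, at a log2 change of -0.21 (SE 0.061, limma adjusted p = 0.018), and its groups lay close together without overlap. The CENPH call rested on the libraries and the scaling: the limma adjusted p was 0.071 without knockdown replicate 1, 0.0635 without knockdown replicate 3 and 0.347 after median scaling (range over 17 settings 0.00188 to 0.347).

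CENPN, which reads the CENP-A nucleosome together with its partner CENPL, averaged 21.6 ± 1.37 FPKM in knockdown and 10.9 ± 1.61 FPKM in control libraries, a log2 change of 0.93. CENPL averaged 10.7 ± 0.326 and 7.56 ± 0.26 FPKM in knockdown and control libraries, a log2 change of 0.45. The CENP-O group, which binds the network's outside and helps to recruit PLK1, was represented by CENPO, CENPP and CENPQ. CENPO averaged 13.9 ± 0.43 FPKM in knockdown and 9.02 ± 0.269 FPKM in control libraries. CENPQ averaged 8.598 ± 0.802 FPKM in knockdown and 6.39 ± 0.25 FPKM in control libraries, and both genes rose. The CENPQ call was lost once the length and GC trend was removed (limma adjusted p = 0.0825, range over 17 settings 0.000848 to 0.0825). CENPP, the lowest of all 43 genes per length, was at 1.47, 0.859 and 1.15 FPKM in knockdown against 0.831, 0.517 and 0.807 FPKM in control replicates without overlap and did not pass (limma adjusted p = 0.0747, 95% interval of the log2 change -0.00033 to 0.65). Without knockdown replicate 2 CENPP passed at an adjusted p of 0.0396, and after median scaling and quantile normalization at 0.0407 and 0.0046 (range over the settings that tested it 0.0046 to 0.236). CENPN, CENPO, CENPP and CENPT overlap other listed genes on hg19, and no strand setting is stated, so their values may include reads of C16orf61, of PTRHD1 and ADCY3, of ECM2, ASPN, NOL8 and IPPK, and of THAP11 and NUTF2.

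Outer kinetochore genes were higher in 11 of 15, with none lower and a median log2 change of 0.65. Of all tested genes 25.6% were called higher and 37.9% lower. The corona proteins CENPE and CENPF moved furthest. CENPE, the kinesin that carries chromosomes toward the spindle equator (hg19, chromosome 4, 104026963 to 104119566), was at 9.20, 7.72 and 8.68 FPKM in knockdown, against 1.89, 2.83 and 2.79 FPKM in control replicates. The lowest knockdown value was far above the highest control value, and the log2 change was 1.45 (SE 0.13, limma adjusted p = 2.87e-05). CENPF, a large coiled-coil protein of the corona, was at 37.2, 36.0 and 37.9 FPKM in knockdown, against 13.2, 18.4 and 16.7 FPKM in control replicates, a log2 change of 1.16. ZWINT, the KNL1 partner that anchors the corona's RZZ complex, averaged 95.2 ± 3.12 FPKM in knockdown and 44.0 ± 3.398 FPKM in control libraries, a log2 change of 1.10 (SE 0.061, limma adjusted p = 3.59e-06). CASC5, the older symbol for KNL1, the scaffold on which BUB proteins assemble, averaged 5.29 ± 0.346 and 2.76 ± 0.452 FPKM in knockdown and control libraries, a log2 change of 0.75.

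The NDC80 complex is the main microtubule coupler and has 4 subunits. NDC80 averaged 23.2 ± 1.46 FPKM in knockdown and 14.9 ± 2.63 FPKM in control libraries. NUF2, its coiled-coil partner, averaged 15.8 ± 1.43 FPKM in knockdown and 9.33 ± 0.675 FPKM in control libraries. SPC25, at the inner end of the complex, averaged 11.7 ± 0.854 FPKM in knockdown and 7.07 ± 1.02 FPKM in control libraries. These 3 rose by 0.62 to 0.70 on the log2 scale. The fourth subunit, SPC24, was at 14.1, 10.5 and 11.0 FPKM in knockdown, against 17.7, 14.005 and 12.9 FPKM in control replicates. The SPC24 groups overlapped, and its log2 change of -0.31 did not pass (limma adjusted p = 0.077, 95% interval -0.62 to 0.0032). Without knockdown replicate 1 SPC24 was called lower at an adjusted p of 0.0244 (range over 17 settings 0.0244 to 0.273).

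The MIS12 complex joins the inner layer to NDC80. Among its subunits PMF1 rose, at 32.3 ± 2.74 FPKM in knockdown and 20.2 ± 1.07 FPKM in control libraries, a log2 change of 0.65; a PMF1-BGLAP readthrough gene lies over it. MIS12 averaged 12.9 ± 0.81 FPKM in knockdown and 11.1 ± 0.927 FPKM in control libraries and was called higher at the margin (log2 change 0.21, limma adjusted p = 0.0454). The MIS12 call was lost without knockdown replicate 1 (0.0614), 2 (0.0789) or 3 (0.155), without control replicate 1 (0.107) or 2 (0.0837), with no filter (0.0658), with no variance trend (0.0537) and with the length and GC trend removed (0.125). Over the 17 settings the MIS12 value lay between 0.00481 and 0.155. DSN1 averaged 11.3 ± 0.229 and 9.62 ± 1.51 FPKM in knockdown and control libraries and did not pass (limma adjusted p = 0.0875). DSN1 passed without control replicate 1 at an adjusted p of 0.0164, after median scaling at 0.0216 and after quantile normalization at 0.0422 (range over 17 settings 0.0164 to 0.245). NSL1 was at 1.90, 1.84 and 2.20 FPKM in knockdown and 1.65, 1.77 and 2.01 FPKM in control replicates, with overlapping groups and a log2 change of 0.085 (95% interval -0.15 to 0.32). Quantile normalization gave NSL1 a log2 change of 0.38 that passed (adjusted p = 0.00941, range over the settings that tested it 0.00941 to 0.821), and removing the length and GC trend gave -0.034.

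The SKA complex follows the ends of shrinking microtubules, and its 3 subunits split. SKA3 was at 12.05, 14.1 and 14.4 FPKM in knockdown, against 6.88, 7.11 and 5.90 FPKM in control replicates, a log2 change of 0.93. SKA2 averaged 22.2 ± 0.246 and 14.6 ± 0.982 FPKM in knockdown and control libraries, a log2 change of 0.57. SKA1 was at 5.41, 6.50 and 4.81 FPKM in knockdown and 6.69, 6.52 and 5.29 FPKM in control replicates, with overlapping groups, a log2 change of -0.13 and a 95% interval of -0.40 to 0.15. Quantile normalization turned the SKA1 value to 0.052. SKA3 overlaps MRP63 on hg19.

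Checkpoint genes were higher in 9 of 10, cohesion protection included, with none lower and a median log2 change of 0.78. The shares of all tested genes were 25.6% called higher and 37.9% lower. CDC20, which the checkpoint restrains (hg19, chromosome 1, 43824626 to 43828873), was the most abundant of the 43 transcripts per length in knockdown libraries. It was at 156, 155 and 141 FPKM in knockdown, against 61.1, 56.0 and 46.5 FPKM in control replicates, a log2 change of 1.46 (SE 0.094, limma adjusted p = 7.14e-06). Its groups stood well apart. BUB3, the WD-repeat partner of BUB1 and BUBR1, averaged 86.7 ± 3.13 FPKM in knockdown libraries and 66.3 ± 4.97 FPKM in control libraries, where it was the most abundant of the 43 per length. Its log2 change of 0.38 was below that of either partner, a difference that was not tested. BUB1, the kinase that marks centromeric histone H2A, averaged 42.6 ± 1.17 FPKM in knockdown and 24.2 ± 1.296 FPKM in control libraries, a log2 change of 0.79. BUB1B, which encodes BUBR1, averaged 19.8 ± 0.468 FPKM in knockdown and 12.4 ± 1.04 FPKM in control libraries, a log2 change of 0.64, and overlaps PAK6 on hg19.

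MAD2L1, the MAD2 protein that clamps CDC20, was at 59.0, 57.3 and 54.4 FPKM in knockdown, against 32.6, 33.4 and 32.4 FPKM in control replicates. The control replicates were tightly grouped, and the log2 change was 0.78 (SE 0.048, limma adjusted p = 5.7e-06). TTK, the MPS1 kinase that starts checkpoint signalling, averaged 31.2 ± 0.833 and 16.8 ± 1.94 FPKM in knockdown and control libraries, a log2 change of 0.86. The RZZ complex brings dynein and MAD1 to kinetochores, and its ZWILCH and KNTC1 subunits both rose but by different amounts. ZWILCH averaged 14.4 ± 0.608 FPKM in knockdown and 6.96 ± 0.306 FPKM in control libraries, a log2 change of 0.95, and overlaps LCTL on hg19. KNTC1, the ROD protein, was at 10.4, 11.3 and 11.5 FPKM in knockdown, against 8.58, 9.35 and 9.05 FPKM in control replicates, a log2 change of 0.27 (SE 0.068, limma adjusted p = 0.00871).

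The shugoshins SGOL1 and SGOL2 protect centromeric cohesion. SGOL2 was at 10.7, 8.68 and 9.86 FPKM in knockdown, against 3.07, 4.77 and 5.26 FPKM in control replicates, a log2 change of 1.02 (SE 0.16, limma adjusted p = 0.000677). SGOL1 was low throughout, at 3.32, 2.87 and 2.49 FPKM in knockdown and 1.80, 2.73 and 1.59 FPKM in control replicates, where control replicate 2 lay above the lowest knockdown library. The SGOL1 change of 0.37 did not pass (limma adjusted p = 0.0627). Without control replicate 2 SGOL1 passed at 0.00931, and it passed at 0.0476 when only genes listed in all 6 libraries were fitted, at 0.0239 after median scaling and at 0.00599 after quantile normalization (range over the settings that tested it 0.00599 to 0.191).

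All 6 genes of the kinases and the passenger complex were higher, against 25.6% of all tested genes. Their median log2 change was 0.95, and the count called higher was 6 in every alternative run. PLK1, the polo kinase of spindle assembly and mitotic exit (hg19, chromosome 16, 23690201 to 23701688), was at 54.1, 55.8 and 52.1 FPKM in knockdown, against 22.5, 21.7 and 20.8 FPKM in control replicates. PLK1 had the smallest adjusted p of the 43 genes, at a log2 change of 1.28 (SE 0.052, limma adjusted p = 1.04e-06), and overlaps ERN2 on hg19. AURKA, the spindle pole Aurora kinase (hg19, chromosome 20, 54944445 to 54967351), was at 68.9, 68.6 and 69.1 FPKM in knockdown, against 34.9, 30.7 and 33.5 FPKM in control replicates, a log2 change of 1.04. The knockdown replicates of AURKA were nearly equal.

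The passenger complex joins Aurora B to survivin, borealin and INCENP, which place it at the centromere. BIRC5, survivin, was at 59.9, 58.6 and 58.4 FPKM in knockdown, against 30.6, 24.1 and 24.1 FPKM in control replicates, a log2 change of 1.15. CDCA8, borealin, averaged 25.7 ± 2.39 and 13.7 ± 0.973 FPKM in knockdown and control libraries, a log2 change of 0.86. INCENP, the scaffold, averaged 20.3 ± 1.05 FPKM in knockdown and 13.7 ± 0.764 FPKM in control libraries, a log2 change of 0.54. AURKB, the kinase itself, moved least of the 6, at 50.7, 52.9 and 48.9 FPKM in knockdown, against 36.1, 42.9 and 40.5 FPKM in control replicates, a log2 change of 0.35 (SE 0.068, limma adjusted p = 0.00244).

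**Figure D3:**
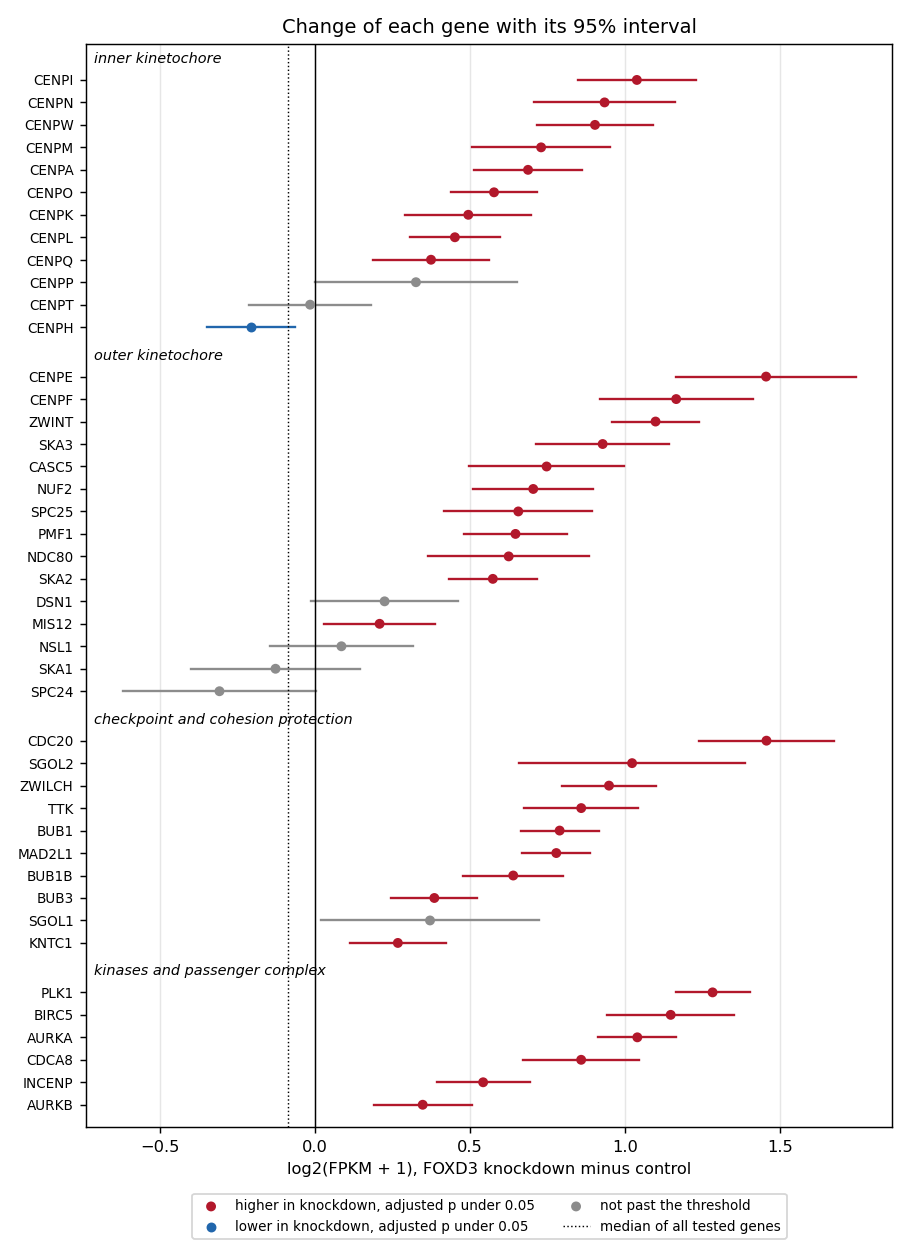
Log2 change of each gene on the log2(FPKM + 1) scale, knockdown minus control, with its 95% interval from limma and n = 3 libraries per group; the dotted line is the median of all tested genes at -0.087. The intervals of CENPP, CENPT, DSN1, NSL1, SKA1 and SPC24 lie across 0, and those of CENPE and CDC20 lie furthest to the right.

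Because FPKM are scaled to transcript length, partner transcripts were also set against each other within each library. The pairs were chosen after their values had been seen, so the ratios are given with no test. CENPH over CENPI was 2.33, 2.75 and 2.67 in knockdown, against 8.05, 6.36 and 6.73 in control replicates. SPC24 over SPC25 was 1.16, 0.980 and 0.903 in knockdown, against 2.43, 1.76 and 2.17 in control replicates. SKA1 over SKA3 was 0.449, 0.462 and 0.333 in knockdown, against 0.972, 0.918 and 0.897 in control replicates. In each of these 3 pairs every knockdown ratio lay below every control ratio. AURKB over AURKA averaged 0.738 ± 0.0318 in knockdown and 1.21 ± 0.182 in control libraries, so the Aurora B transcript was the lower of the pair in all 3 knockdown libraries and the higher in all 3 control libraries. SGOL1 over SGOL2 was 0.310, 0.330 and 0.253 in knockdown and 0.585, 0.573 and 0.301 in control replicates, which overlapped. The order of the 43 genes by mean FPKM was otherwise much alike, with Spearman's rho of 0.96 between the groups, a description over 43 genes that share libraries.

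**Figure D4:**
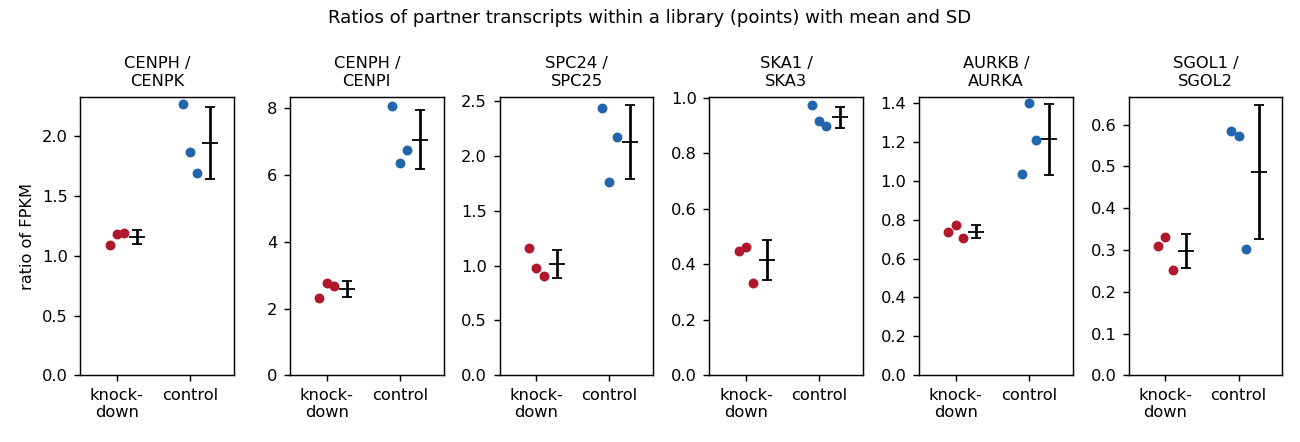
Ratio of FPKM of 6 pairs of partner transcripts in each library, 3 points for FOXD3 knockdown at the left and 3 for control at the right, with mean and SD as bars. Knockdown points are lower in every panel, except that 1 control point of SGOL1 over SGOL2 falls among them.

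Related genes outside the 43 were counted in 8 lists, which were also chosen with earlier results of these data known. Of their 73 genes 51 were higher and 5 lower, against 25.6% and 37.9% of all tested genes. The median log2 change of the 73 was 0.53. In the centromere neighbourhood 3 of 4 CENP-A deposition factors and 5 of 6 further centromere proteins rose. OIP5, a loader of CENP-A, averaged 16.0 ± 0.434 FPKM in knockdown and 6.23 ± 1.45 FPKM in control libraries. STRA13, the older symbol for CENP-X, averaged 106.7 ± 7.74 FPKM in knockdown and 39.7 ± 4.15 FPKM in control libraries, and MLF1IP, the older symbol for CENP-U, had a log2 change of 0.76. CENPC1, the centre of the inner kinetochore, was at 2.88 ± 0.656 FPKM in knockdown and 2.91 ± 0.585 FPKM in control libraries and did not pass (limma adjusted p = 0.95).

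All 11 genes of cohesin, securin and separase rose, among them PTTG1, securin, at 235.8 ± 3.28 FPKM in knockdown and 122.5 ± 8.71 FPKM in control libraries, and the cohesin subunit STAG1 with a log2 change of 1.00. Of 8 condensin genes 7 rose, led by SMC4 at 77.0 ± 1.62 FPKM in knockdown and 29.8 ± 4.69 FPKM in control libraries and SMC2 with a log2 change of 1.09. Other mitotic kinases and their regulators were higher in 8 of 14 and lower in none, against 25.6% and 37.9% of all tested genes. CDC25A, a phosphatase that activates cyclin-dependent kinases, was 2.59-fold and TPX2, the activator of Aurora A, 1.75-fold higher by mean FPKM. The 6 proliferation markers all rose, with CCNB1 at 161.7 ± 1.43 FPKM in knockdown and 65.7 ± 2.67 FPKM in control libraries and MKI67 at 40.4 ± 0.958 FPKM in knockdown and 17.3 ± 0.297 FPKM in control libraries.

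The remaining lists were mixed. Of 17 genes of the anaphase-promoting complex, its E2 enzymes and its regulators, 8 rose and 3 fell, with a median log2 change of 0.18. Among all tested genes 25.6% were called higher and 37.9% lower. The E2 enzyme UBE2S averaged 540.4 ± 24.3 FPKM in knockdown and 297.7 ± 34.9 FPKM in control libraries, and the subunit ANAPC7 had a log2 change of 0.62. ANAPC13, ANAPC16 and CDC16, all subunits of the complex, fell by 0.43, 0.15 and 0.32 on the log2 scale, and the first 2 of these overlap CEP63 and ASCC1 on hg19. Of 7 further checkpoint and corona genes 3 rose and 2 fell, too short a list to set apart from the shares of all tested genes. TRIP13, the ATPase that remodels MAD2, and CCDC99, the older symbol for Spindly, rose with log2 changes of 0.91 and 0.88, while MAD1L1, the MAD2 anchor, and the microtubule-binding CLASP1 fell by 0.24 and 0.21. The number of genes called lower in the 8 lists was 2 after median scaling and 3 after quantile normalization. Over the 17 settings the limma adjusted p reached 0.765 for ANAPC16, 0.267 for MAD1L1 and 0.244 for CLASP1, so these calls were not kept throughout. The largest value was 0.0185 for ANAPC13 and 0.00878 for CDC16.

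**Figure D5:**
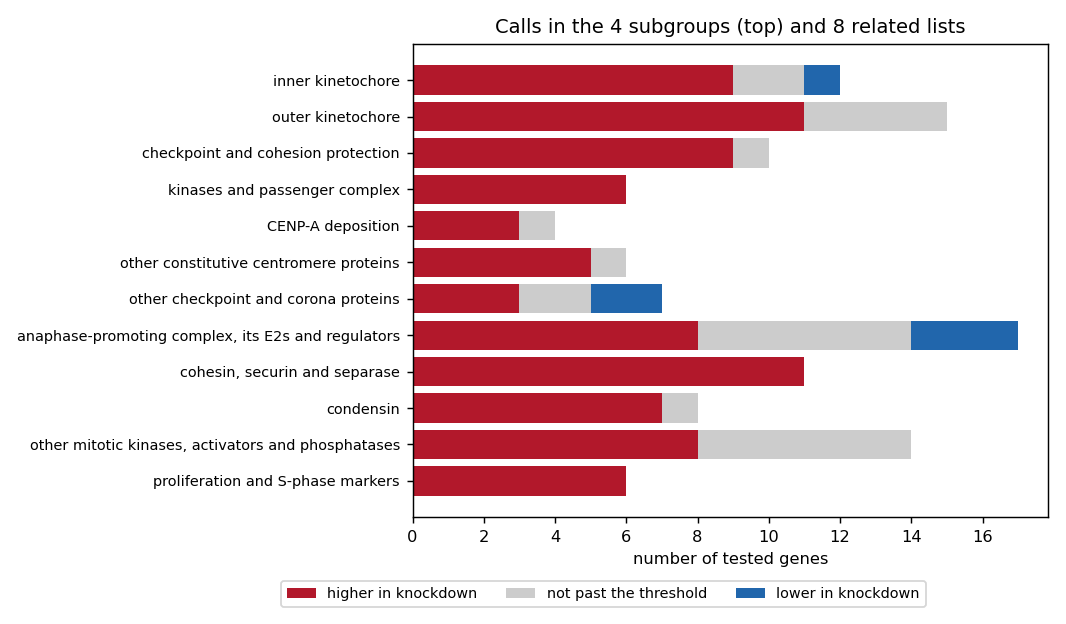
Number of tested genes called higher in knockdown, not past the threshold and called lower in knockdown, for the 4 subgroups of the 43 genes (top 4 bars) and 8 lists of related genes. The bars of the kinases, of cohesin with securin and separase, and of the proliferation markers are filled by genes called higher.

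The authors' deposited table of their own comparison lists 42 of the 43 genes, with CENPP not among them. Of these 42, 26 were higher in the authors' deposited table and 0 lower at a false discovery rate under 0.05, against 10.9% higher and 11.2% lower of its 12275 genes. All 26 were among the 35 genes called higher by limma, and the other 9 of the 35 did not pass in the authors' deposited table. In the authors' deposited table CENPE had a log2 fold change of 1.89, CDC20 1.597 and PLK1 1.46, on a scale with no pseudocount. CENPH had -0.12 in the authors' deposited table with a false discovery rate of 0.797, and AURKB 0.47 with 0.132. The sign in the authors' deposited table was that of limma for 41 of the 42 genes, the exception being CENPT.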

How the data were processed

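RNA sequencing values of 3 FOXD3 knockdown and 3 control libraries were used, grouped by the genotype in the labels. Libraries were made with a TruSeq RNA kit, per the labels' protocols. The submitters' processing notes name TopHat2 2.0.12, Bowtie, Cufflinks 2.0.2, Cuffdiff and hg19, and the sources used here do not give read length, strand setting or annotation. The authors deposited 1 FPKM table per library, per the file headers, without counts, so the number of fragments behind a value is unknown. The tables list no symbol at 0. FPKM were summed over the rows of a symbol, and an unlisted symbol was set to 0. The authors' deposited comparison table gives for each gene 1 FPKM per group, a log2 fold change (knockdown over control) and, per the file headers, a p-value with its false discovery rate; its values were only copied.

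Genes averaging 0.5 FPKM or more were tested on log2(FPKM + 1), a scale that understates the change of low genes, with limma 3.58.1 in R 4.3.3 (eBayes, trended prior variance, Benjamini-Hochberg adjustment over all tested genes, two-sided). The procedure was also run on simulated data with independent noise and few genes changed. There it called 50% of the genes changed by 0.25 on the log2 scale and 100% of those changed by 0.5. The changed genes were drawn only from those averaging above 1 on the log2(FPKM + 1) scale. Spreads were smoothed along level, so these shares do not cover lower or unusually variable genes. The simulation held no length trend within a library, and far more genes were called in the real data. Fold values are ratios of mean FPKM. Transcript lengths are those of the longest GENCODE 29 transcript. Starts in the files are 0-based and are given 1-based. Alternatives covered the pseudocount (0.1, 0.5), the filter (none, 5 FPKM, genes listed in all 6 libraries), scaling (sum, median, quantile), eBayes without a trend or robust, each library left out, and, chosen after seeing the data, removal of the length and GC trend. All 43 genes are reported. Of each related list, up to 2 called genes with the largest absolute change are named by rule, and 1 of them is not reported here; ANAPC13, ANAPC16, CDC16, MAD1L1, CLASP1 and CENPC1 were named after their values were seen. The 43 genes and the lists were chosen with earlier results of these data known.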

Additional observations from a re-analysis of the deposited data

How the results depend on the processing

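The number of the 43 genes called higher was 33 to 39 over 17 alternatives, against 35, and 33 of the 35 were called higher in every alternative in which they were tested; CENPQ and MIS12 were not. The single lower call, CENPH, was lost after median scaling (0 genes lower), and with a library left out the number was 0 to 1; without knockdown replicate 1 the gene called lower was SPC24. The median log2 change of the 43 genes, 0.66, was 0.72 and 0.69 with a pseudocount of 0.1 and 0.5, 0.69 with a filter at 5 FPKM (39 genes), 0.70 after sum scaling, 0.77 after median scaling, 0.73 after quantile normalization, 0.63 after removal of length and GC trends, and 0.60 to 0.71 with a library left out. The 8 related lists held 5 genes called lower, 3 with no filter, 2 after median scaling, 3 after quantile normalization and 2 to 4 with a library left out. Of all genes 3295 were lower with a filter at 5 FPKM, which tested 9170 genes. Signs turned only where the change was small: CENPT, at -0.016, was 0.0020 after sum scaling, 0.099 after median scaling, 0.15 after quantile normalization, 0.094 once length and GC trends were removed and -0.077 to 0.037 with a library left out; SKA1 was 0.052 after quantile normalization, and NSL1 -0.034 with the length and GC trend removed. The cause of these shifts was not tested. The difference in FOXD3, knockdown minus control, was -0.20 to -0.12 FPKM with a library left out. No paired analysis was possible because the labels give no replicate numbers, and those used here only follow accession order. The depth behind low genes such as CENPP, NSL1 and SGOL1 is unknown.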
